A study of Mus musculus with 8 samples.

Results

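The genes described here are 35 mouse genes of autophagy and of AMP-activated protein kinase (AMPK) signalling, and the measurement is where their transcripts carried peaks of N4-acetylcytidine (ac4C), an acetyl group that the enzyme NAT10 places on cytidine. Members were chosen by name from the pathway, and their peaks were those that the deposited lists assign to these names. At least 1 peak was found for 34 of the 35 genes, out of 11417 genes with a peak in any list. The members held 280 of the 75481 listed peaks and 176 of the 39860 loci formed by joining overlapping peaks of the lists. The set comprises 8 kinase genes (the AMPK subunits and the kinases upstream of them), 2 genes of AMPK substrates in fatty acid metabolism, and 25 genes of the autophagy machinery.

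AMPK is a heterotrimer of a catalytic alpha, a scaffolding beta and a nucleotide-binding gamma subunit that is activated when cellular energy falls. It restrains lipid synthesis by phosphorylating acetyl-CoA carboxylase and promotes autophagy by phosphorylating the Ulk kinases. Autophagy encloses cytoplasm in a double membrane that grows through initiation, phosphatidylinositol 3-kinase, lipid transfer and conjugation steps and then fuses with the lysosome, and in the ovary it has been tied to the survival of germ cells.

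Dif-FGCs at day 3 of differentiation were compared with undifferentiated FGSCs, cultured female germline stem cells of the mouse, by acetylated RNA immunoprecipitation and sequencing. By the methods of the study, differentiation was induced with granulosa cells in the same culture and with retinoic acid, BMP4 and bFGF. The labels name no genetic change for either state, and whether these samples carried the Stra8 promoter reporter that the study describes is not stated. Each state has 2 replicates with an immunoprecipitated and an input library, 8 libraries in all, and each of the 4 lists gives peaks of an immunoprecipitated library over input. All samples carry the label of 1 cell line, and the labels do not say whether replicates were separate cultures, so the p-values below measure only the spread between these samples, which may be technical.

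The lists held 13920 to 22791 peaks in 6478 to 9050 genes, and list 1 was longer than list 2 in both states. Read depth is unknown, and a gene absent from a list is not shown to lack ac4C. Of the marker genes examined, 5 of 9 germ cell genes had a peak in any list but Ddx4, Dazl, Pou5f1 and Dppa3 had none, and 0 of 4 meiotic genes had one. Among the germ cell genes with peaks, Kit was in all 4 lists and Prdm1 in Dif-FGC 2 alone. Ifitm3 and Thy1 were in both FGSC lists alone and Itga6 in both Dif-FGC lists alone. Among 10 granulosa cell genes 6 had a peak in any list, and the granulosa regulators Nr5a1 and Nr5a2 had peaks in both Dif-FGC lists and in neither FGSC list. The other granulosa genes with peaks did not share this pattern, since Amhr2 was in Dif-FGC 1 alone, Inha in Dif-FGC 2 alone, Fst in FGSC 1 alone and Inhba in Dif-FGC 1 and both FGSC lists. Peaks over input are not expression levels, and the part of granulosa cells in the differences below was not tested. Where a peak is present in some lists alone, more ac4C on a transcript, more of the transcript and more cells that make it cannot be told apart.

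Several member peaks lay over the annotated start of transcription, and some of the first transcribed bases under these peaks are shown. Among loci that recurred in every list, 9 of 15 in genes with an annotated start overlapped one by their joined span. At some of these, the peak of a single list did not itself reach the start. The Ulk1 and Atg13 loci that differed between the states also lay at starts. The sequences are bases 21 to 50 of the transcript in RefSeq annotation of GRCm38.p6, written 5′ to 3′ on the transcript strand, with matches to the ac4C motif CNNCNNCNN in capitals (N is any base, only the transcript strand was searched, and overlapping matches run together). The first 7 were covered by a peak in all 4 lists.
Prkab1, chr5:116024379-116024408, minus strand: gCTCCGGCTCtgttcggagttccagtcgcg
Prkag2, chr5:24908460-24908489, minus strand: cgcgCGCCCCCCGCCACTGCAGgcccctcc
Stk11, chr10:80115815-80115844, plus strand: acaagatggCGGCGGCGTgtcggtctagga
Wipi1, chr11:109611340-109611369, minus strand: ggctgctgaggtggctgtCCCCCGCTCaga
Wipi2, chr5:142629604-142629633, plus strand: gcggcagttggtccccgcgcagcgagaggc
Atg3, chr16:45158849-45158878, plus strand: agagagacagcttggagaaggccgggggct
Tfeb, chr17:47737057-47737086, plus strand: gcggagtgacagccggagcccaagcgccgg

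The next 5 were covered by a peak in some lists. Ulk1 was covered in both Dif-FGC lists, Atg13 in both FGSC lists, Atg5 in FGSC 2 (the FGSC 1 peak covered part of it), Camkk2 in 3 lists and Prkaa1 in 3 lists.
Ulk1, chr5:110810032-110810061, minus strand: atcttttgtttccctgcggggctccgagcc
Atg13, chr2:91710543-91710572, minus strand: aCCTCCCCACCGCCTGCACtgaagcggatg
Atg5, chr10:44268359-44268388, plus strand: agggtgactggacctacggtgggcgcccgg
Camkk2, chr5:122779361-122779390, minus strand: gCGCCGCCGCGCCGCgcgcgagccgaagcc
Prkaa1, chr15:5143881-5143910, plus strand: agttcctggagaaagatggCGACGGCCGag

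A match was present in 11 of the 20 member start windows that a peak of the gene covered in at least 1 list (55%) and in 4 of the 7 covered in all 4 lists. Among all 32851 start windows of the annotation 32.9% held a match, but 27621 of these were not covered by a peak of their gene. They are therefore not a like set for the 55%, and the share over all genes for windows covered in at least 1 list was not computed. Among 1699 windows covered in all 4 lists, over all genes, 48.9% held a match. A match is a description of the letters and not a mapped site. Atg3, Tfeb and Wipi2 were covered in every list and held no match in this window, and Prkag2 and Atg13 held 5 overlapping matches each. Rb1cc1, Becn1, Pik3c3, Atg12 and Atg16l1 had no entry in the table of starts.

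The question that the design raises is whether acetylation of these transcripts differed between the states. Member genes carried 99 and 43 peaks in Dif-FGC 1 and 2, against 91 and 47 in FGSC 1 and 2. These are 0.44% and 0.309% of the Dif-FGC lists and 0.399% and 0.289% of the FGSC lists. The number of peaks followed the length of the list, with list 1 above list 2 in both states, and the states overlapped. Peaks averaged 71 ± 39.6 in Dif-FGCs and 69 ± 31.1 in FGSCs (SD, n = 2 each, exact two-sided permutation p = 1).

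A peak was found for 28 and 21 members in the Dif-FGC lists, against 32 and 25 in the FGSC lists. The averages were 24.5 ± 4.95 genes in Dif-FGCs and 28.5 ± 4.95 genes in FGSCs (SD, n = 2 each, exact permutation p = 0.667). The share of a list that lay in member genes averaged 0.375% ± 0.093 in Dif-FGCs and 0.344% ± 0.0783 in FGSCs (SD, n = 2 each, exact permutation p = 0.667). None of these differences exceeded the spread between replicates. With 2 libraries a state this test cannot return a p under 0.33, and after Benjamini-Hochberg adjustment over the 4 comparisons of this kind the exact permutation p-values were 0.889 to 1.

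**Figure D1:**
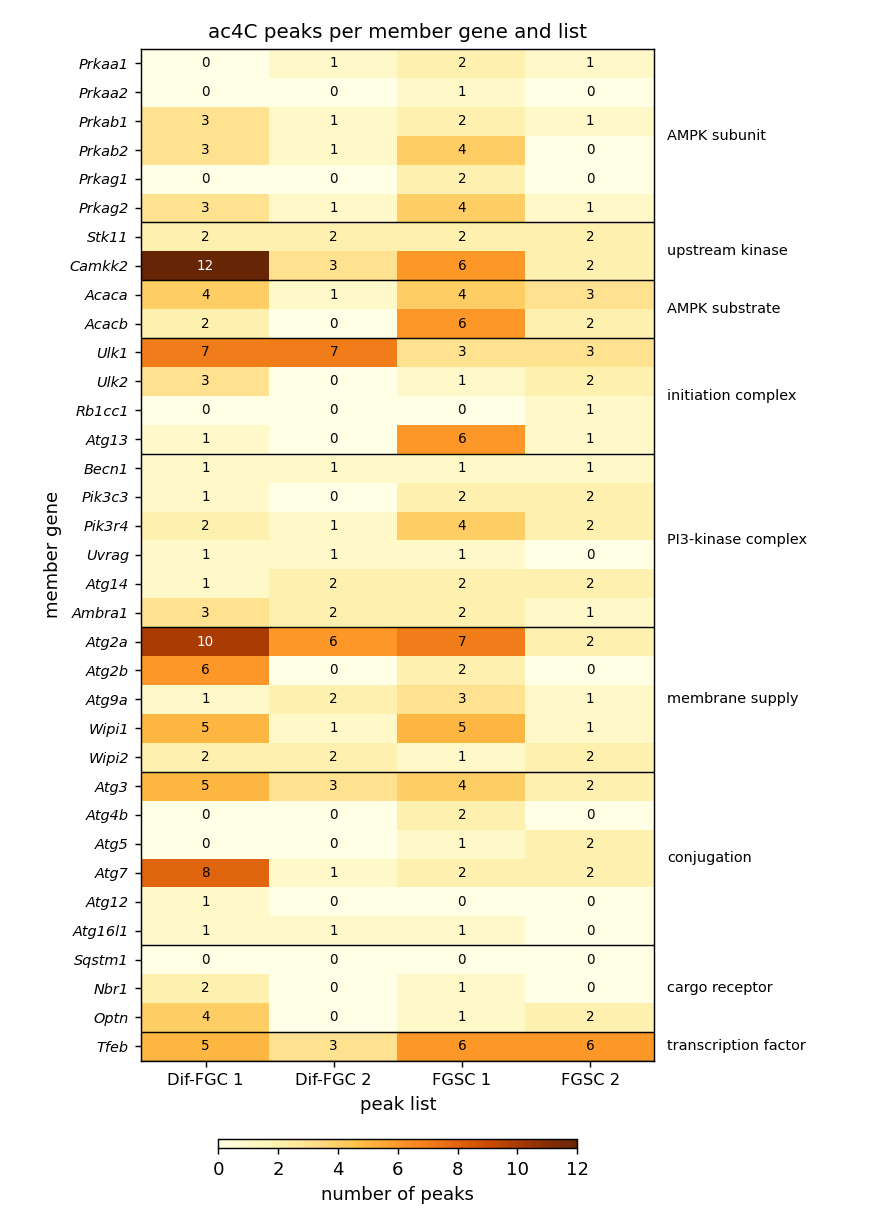
Number of ac4C peaks for each of the 35 member genes (rows, grouped by role) in the Dif-FGC and FGSC lists (columns), with the count printed in each cell and shown as colour. Camkk2 reaches 12 peaks in Dif-FGC 1, Sqstm1 has 0 in every list, and Ulk1 has 7 and 7 peaks in the Dif-FGC lists against 3 and 3 in the FGSC lists.

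Within a list, peaks were compared by fold rank, which is the percentage of the list's peaks with a fold enrichment over input at least as high, so that a small value is a strong peak. The strongest peak of a member had a median rank of 39.8% and 37.4% in the Dif-FGC lists, against 39.2% and 47.2% in the FGSC lists. Over all genes of the same lists the medians were 29.7% and 34.5% in Dif-FGCs and 28.8% and 33.4% in FGSCs. In every list the members thus stood below the typical gene in the strength of their strongest peak. Between the states the member medians averaged 38.6 ± 1.68 in Dif-FGCs and 43.2 ± 5.63 in FGSCs (percent, SD, n = 2 each, exact permutation p = 0.667). Member peaks were also shorter than those of the list, with median lengths of 134 and 200 bp in the Dif-FGC lists, where the lists had 165 and 210 bp, and 108 and 96 bp in the FGSC lists, where the lists had 158 and 164 bp. The authors' false discovery rate of member peaks was at least 51% in every list, so a single member peak does not by itself establish ac4C. Such values were not particular to the members. Member medians were 58.3% and 100% in the Dif-FGC lists, where the lists had 59.9% and 100%. In the FGSC lists they were 68.3% and 62.8%, where the lists had 68.6% and 68.6%.

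Of the 34 members with a peak, 17 had one in all 4 lists (50%, against 43.5% of all genes with a peak). Presence in a single list was found for 5 members (14.7%, against 22.6% of all genes). Members with peaks in both Dif-FGC lists and in neither FGSC list numbered 0 (1.62% of all genes), and 1 member, Atg5, had peaks in both FGSC lists and in neither Dif-FGC list (2.94%, against 5.25% of all genes). These shares lay near those of all genes. Of the 9 members present in 3 lists, 5 were missing from Dif-FGC 2 alone, 3 from FGSC 2 alone and 1 from Dif-FGC 1 alone, so that absence was most frequent in the shorter list of each state.

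Among the AMPK subunits, Prkab1 and Prkag2 were present in all 4 lists. The beta subunit gene Prkab1 had a peak over its start in each list, at chr5:116024091-116024462, with ranks of 25.7% and 30.7% in the Dif-FGC lists and 79.1% and 21.1% in the FGSC lists. The FGSC lists lay on both sides of the Dif-FGC lists, with FGSC 1 the weakest. The gamma subunit gene Prkag2 had its shared locus at chr5:24908323-24908509, also at a start, with ranks of 57% and 56.1% in the Dif-FGC lists and 59.1% and 41.6% in the FGSC lists. Its other 5 loci were each found in a single list.

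The catalytic subunit genes differed in how often they were listed. Prkaa1 had a locus at its start, chr15:5143861-5143995, with a peak in Dif-FGC 2 (fold 6.86, rank 58%) and none in Dif-FGC 1, against FGSC 1 (fold 26.67, rank 16.8%) and FGSC 2 (fold 13.43, rank 27%). It was the one member missing from Dif-FGC 1 alone, and both FGSC ranks were stronger than the single Dif-FGC rank. Prkaa2, the other catalytic gene, had 1 peak, in FGSC 1, at rank 63.1%. Prkag1, a further gamma subunit gene, had 2 peaks, also in FGSC 1 alone, the stronger at rank 41.3%.

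Prkab2, the second beta subunit gene, had 3 peaks in Dif-FGC 1 and 1 in Dif-FGC 2, against 4 in FGSC 1 and 0 in FGSC 2. One locus, chr3:97658589-97658766, was found in both Dif-FGC lists (fold 21.92, rank 14.6% in Dif-FGC 1 and fold 7.21, rank 55% in Dif-FGC 2) and in neither FGSC list. A weak FGSC 1 peak of the same gene, at rank 86.2%, ended 219 bp away from it, so the gene as a whole was not particular to Dif-FGCs.

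Both upstream kinase genes were present in every list. Stk11, which encodes the kinase LKB1 that activates AMPK, had the best mean rank of all members, and its 1105 bp peak had the same limits in all 4 lists, chr10:80115803-80116907. The folds were 16.4 and 13.97 in the Dif-FGC lists, against 14.35 and 27.03 in the FGSC lists, at ranks of 20.6% and 26.7% in Dif-FGCs and 34.8% and 13.2% in FGSCs. The Dif-FGC ranks lay between the FGSC ranks. A shorter second locus, chr10:80124802-80124885, was also found in every list and ranked at 46.2% and 35.2% in Dif-FGCs against 54.6% and 87% in FGSCs, so there both Dif-FGC peaks were the stronger.

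Camkk2, the calcium-dependent kinase that also phosphorylates AMPK, had 12 and 3 peaks in the Dif-FGC lists, against 6 and 2 in the FGSC lists. The number was highest in Dif-FGC 1, and the counts of the states overlapped. Of its 14 loci 8 were found in a single list. The locus at chr5:122763774-122764302 was shared by all 4 lists and ranked at 25.2% and 25.6% in Dif-FGCs against 96.3% and 53% in FGSCs. At the start of the gene, chr5:122779252-122779410, the fold was 24.52 and 10.18 in the Dif-FGC lists (ranks 12.9% and 38.1%), against 5.95 in FGSC 1 (rank 77.4%) and no peak in FGSC 2. At both of these loci the Dif-FGC peaks ranked above any FGSC peak. The same held for 22.6% of all loci shared by the 4 lists, and for loci in 3 lists the share was not computed. A further locus, chr5:122746250-122746449, was found in both Dif-FGC lists alone, at ranks of 41.8% and 74.9%.

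The substrate genes Acaca and Acacb encode the acetyl-CoA carboxylases that make malonyl-CoA. Acaca had 4 and 1 peaks in the Dif-FGC lists, against 4 and 3 in the FGSC lists, with 1 shared locus at chr11:84179831-84179926, where ranks were 41.4% and 23.9% in Dif-FGCs and 72% and 20.4% in FGSCs. A second Acaca locus, chr11:84129672-84129756, lay just inside the annotated 5′ limit of the gene (84129635) and was found in both FGSC lists, with folds of 12.22 and 38.39 and ranks of 41.2% and 9.15%, and in neither Dif-FGC list. The nearest Dif-FGC peak of the gene was 50074 bp away. Acacb had 2 and 0 peaks in the Dif-FGC lists, against 6 and 2 in the FGSC lists, and its 1 locus held by both FGSC lists alone ranked at 82.9% and 58.9%. No Acacb locus was shared by 3 or more lists.

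In the complex that starts autophagy, the largest number of peaks was found for Ulk1, the kinase that AMPK phosphorylates. Ulk1 had 7 and 7 peaks in the Dif-FGC lists, against 3 and 3 in the FGSC lists, so the counts did not overlap. In the opposite direction, the counts of Tfeb, Pik3c3 and Atg5 did not overlap either. The share of all genes with such counts was not computed, so this remains a description. At the start of Ulk1, chr5:110809614-110810097, both Dif-FGC lists had a peak, with folds of 13 and 13.71 and ranks of 26.7% and 27.3%, and neither FGSC list had one. The nearest FGSC peak of Ulk1 was 17422 bp away. It was the only one of the 8 member loci particular to the Dif-FGC lists whose peaks were in the stronger 50% of both lists.

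Ulk1 also had weaker loci in both directions. The loci chr5:110789342-110789535 (ranks 78.5% and 66%) and chr5:110796327-110796500 (ranks 61.7% and 72%) were found in both Dif-FGC lists alone, and chr5:110792102-110792191 was found in both FGSC lists alone (ranks 82.9% and 49.3%), its peaks there overlapping by a few bases. A locus shared by all 4 lists, chr5:110790212-110790480, ranked at 49.1% and 61% in Dif-FGCs and 63.1% and 42.9% in FGSCs, with the states overlapping. By its strongest peak in each list Ulk1 ranked at 26.7% and 27.3% in Dif-FGCs and 25.2% and 42.9% in FGSCs, and the gene therefore differed between the states in which loci were listed more than in its strongest rank.

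Atg13, the adaptor of the Ulk1 complex, showed the opposite pattern at its start. The locus chr2:91710247-91710592 had folds of 43.93 and 30.2 in FGSC 1 and 2, at ranks of 8.51% and 11.7%, and no peak in either Dif-FGC list, where the nearest peak of the gene was 16241 bp away. The weaker of these ranks was still better than the weaker rank of every other member locus found in 1 state alone. Over the gene, Atg13 had 1 and 0 peaks in the Dif-FGC lists, against 6 and 1 in the FGSC lists, and the Dif-FGC 1 peak was weak (rank 89.3%). The homologous kinase gene Ulk2 had 3 and 0 peaks in the Dif-FGC lists, against 1 and 2 in the FGSC lists, with strongest ranks of 71.7% in Dif-FGC 1, 78.9% in FGSC 1 and 47.5% in FGSC 2. Rb1cc1, the scaffold FIP200 of the complex, had 1 weak peak, in FGSC 2, at rank 95%.

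**Figure D2:**
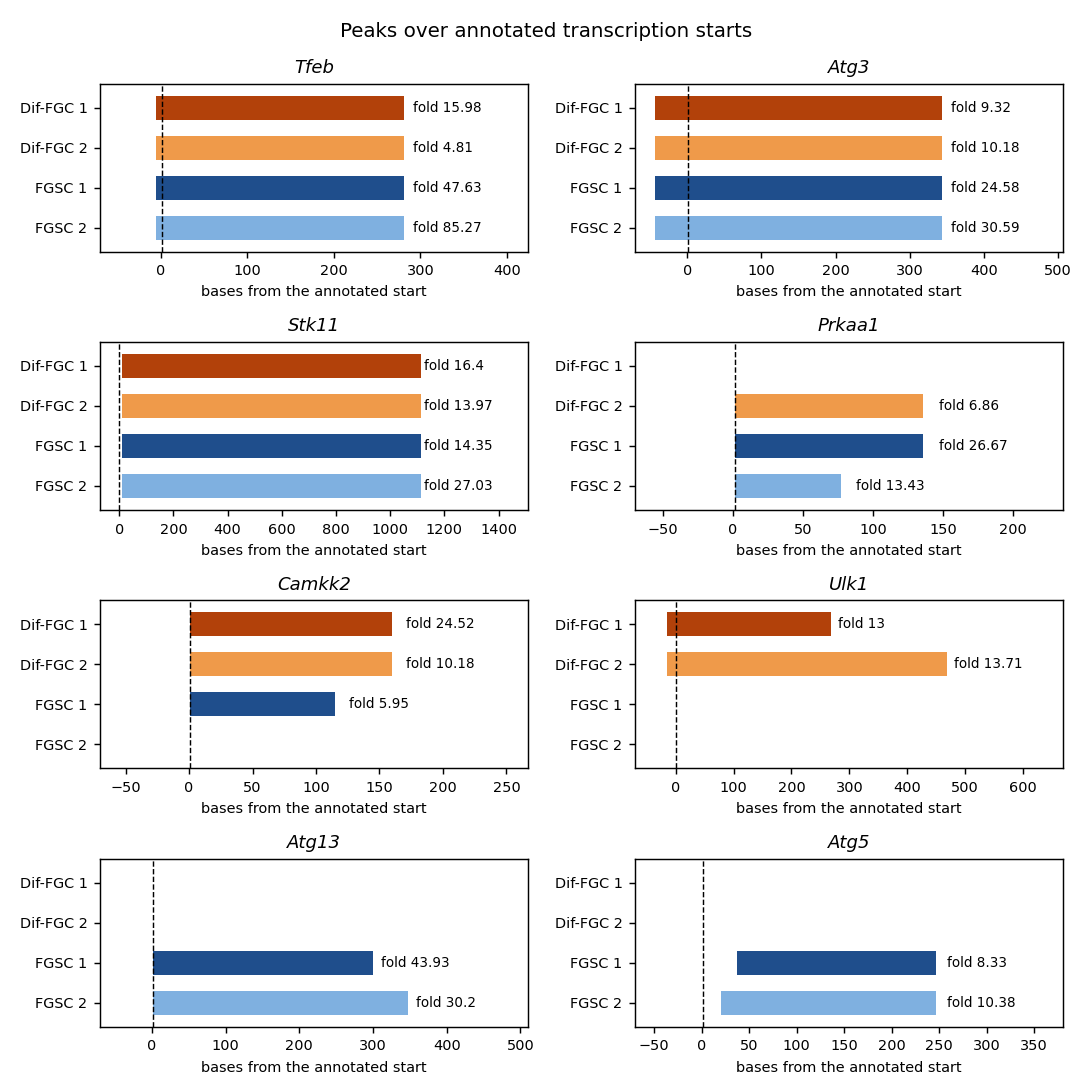
Peaks that overlap the first 50 transcribed bases of 8 member genes. Each panel shows distance in bases from the annotated start (dashed line, base 1) for the Dif-FGC and FGSC lists (rows), bars span the peaks, and the fold over input of each list is printed. Tfeb, Atg3 and Stk11 have bars of identical limits in the 4 rows, Ulk1 has bars in the Dif-FGC rows alone, and Atg13 and Atg5 in the FGSC rows alone.

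The phosphatidylinositol 3-kinase complex marks the growing membrane with a lipid. Its genes each had a peak in at least 3 lists and had 3 to 9 peaks over the 4 lists. The median was 6 peaks, against 7 for all members. Becn1, the regulatory subunit Beclin, had 1 peak in each list, all at chr11:101299009-101299076, with folds of 9.76 and 17.5 in the Dif-FGC lists against 13.52 and 7.32 in the FGSC lists. Their ranks were 36.4% and 20.5% in Dif-FGCs against 37.3% and 47.2% in FGSCs, so that both Dif-FGC peaks ranked above both FGSC peaks, Dif-FGC 1 only just above FGSC 1. Atg14, the subunit that directs the complex to autophagy, had a start locus in all 4 lists with ranks of 36.4% and 37.4% in Dif-FGCs and 36.6% and 84.7% in FGSCs, but its FGSC 2 peak was 15 bp long and did not reach the first 50 bases or the FGSC 1 peak, to which it was joined through the Dif-FGC peaks.

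Ambra1, a Beclin-binding regulator, and Pik3r4, the scaffold subunit, were also present in all 4 lists. Ambra1 had a start locus in 3 lists, chr2:91730134-91730379, with ranks of 66.8% and 37.1% in the Dif-FGC lists and 17.4% in FGSC 1, and a weak locus in both Dif-FGC lists alone (ranks 82.7% and 89.5%). Pik3r4 had no locus in all 4 lists and the weakest mean rank of the 17 members present in every list. Pik3c3, the catalytic lipid kinase, had 1 and 0 peaks in the Dif-FGC lists, against 2 and 2 in the FGSC lists, and its locus in both FGSC lists alone was weak (ranks 94.2% and 69.2%). Uvrag, which joins the complex in place of Atg14, had 1 and 1 peaks in the Dif-FGC lists, against 1 and 0 in the FGSC lists, with strongest ranks of 93.2% and 61% in Dif-FGCs and 71.8% in FGSC 1.

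Of the membrane supply genes, Atg2a, which encodes a lipid transfer protein, had the most peaks of any member, 10 and 6 in the Dif-FGC lists against 7 and 2 in the FGSC lists. The counts of the states overlapped. Its peaks lay at 17 loci, of which 11 were found in 1 list and none in all 4. Its start locus, chr19:6241668-6241966, was found in 3 lists, with ranks of 44.5% and 37.7% in Dif-FGCs and 19.5% in FGSC 1. The locus chr19:6247639-6247876 was found in both Dif-FGC lists alone, at ranks of 77% and 35.7%, and an FGSC peak of the gene lay 320 bp away. The paralogue Atg2b had 6 and 0 peaks in the Dif-FGC lists, against 2 and 0 in the FGSC lists, and was thus missing from list 2 of both states. Its strongest ranks were 44.8% in Dif-FGC 1 and 41.8% in FGSC 1.

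Wipi1 and Wipi2, which bind the lipid made by the 3-kinase complex, each had a start locus in all 4 lists that ranked apart between the states, in opposite directions. At Wipi2, chr5:142629542-142629832 with the same limits in all lists, folds were 14.11 and 10.81 in the Dif-FGC lists against 10.3 and 5.83 in the FGSC lists, and ranks were 24.5% and 35.8% in Dif-FGCs against 49.1% and 57.8% in FGSCs. At Wipi1, chr11:109611233-109611432, ranks were 61.8% and 53.9% in Dif-FGCs against 30.3% and 45.9% in FGSCs. Wipi2 had in addition a locus in both Dif-FGC lists alone that was among the weakest of those lists, at ranks of 96.5% and 99.9%. Atg9a, the membrane protein of the vesicles that seed the structure, had 1 and 2 peaks in the Dif-FGC lists, against 3 and 1 in the FGSC lists, and 1 of its 4 loci, at chr1:75182894-75183116, was found in both FGSC lists alone (ranks 46.1% and 75.5%), with a Dif-FGC peak 156 bp away.

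The conjugation genes attach the ubiquitin-like proteins of autophagy to lipid. Atg3, the enzyme that transfers them to phosphatidylethanolamine, had a start peak of identical limits in all 4 lists, chr16:45158785-45159171. Its folds were 9.32 and 10.18 in the Dif-FGC lists, against 24.58 and 30.59 in the FGSC lists, at ranks of 38.1% and 38.1% in Dif-FGCs and 18.5% and 11.5% in FGSCs. A second shared locus of Atg3, chr16:45178230-45178311, ranked at 64.6% and 66.9% in Dif-FGCs against 37.2% and 61.2% in FGSCs. At both loci each FGSC peak ranked above each Dif-FGC peak.

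Atg5, part of the complex that directs this transfer, was the 1 member listed in both libraries of a state and in neither of the other. It had 0 and 0 peaks in the Dif-FGC lists, against 1 and 2 in the FGSC lists. Its start locus, chr10:44268358-44268584, had folds of 8.33 and 10.38 in FGSC 1 and 2, at ranks of 59.1% and 34.6%. Neither was among the strongest peaks of its list. Atg7, the activating enzyme, had 8 and 1 peaks in the Dif-FGC lists, against 2 and 2 in the FGSC lists, and 1 shared locus of 54 bp at the outer limit of the gene, chr6:114643097-114643150, where the ranks of the states overlapped. Atg16l1, the partner of Atg5, had 1 locus, chr1:87756011-87756314, with ranks of 14.9% and 21.4% in the Dif-FGC lists, against 55.8% in FGSC 1 and no peak in FGSC 2. Atg12, the ubiquitin-like partner of Atg5, had 1 peak, in Dif-FGC 1, at rank 99.8%, and the protease gene Atg4b had 2 peaks, in FGSC 1, at ranks of 80.5% and 88.5%.

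Cargo receptors link ubiquitylated material to the membrane. None of the 3 was present in every list, a role too small to set against the 43.5% of all genes with a peak. Sqstm1 (p62) had 0 peaks in all 4 lists. Nbr1 had 2 and 0 peaks in the Dif-FGC lists, against 1 and 0 in the FGSC lists, with strongest ranks of 92.7% in Dif-FGC 1 and 36.3% in FGSC 1. Optn had 4 and 0 peaks in the Dif-FGC lists, against 1 and 2 in the FGSC lists, with strongest ranks of 36% in Dif-FGC 1, 20.5% in FGSC 1 and 76% in FGSC 2.

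Tfeb, the transcription factor that drives genes of autophagy and the lysosome, carried the strongest peaks of any member in both FGSC lists. It had 5 and 3 peaks in the Dif-FGC lists, against 6 and 6 in the FGSC lists. The start peak, chr17:47737030-47737316, had the same limits in all 4 lists, with folds of 15.98 and 4.81 in the Dif-FGC lists against 47.63 and 85.27 in the FGSC lists. The ranks were 21.2% and 78.4% in Dif-FGCs, against 7.55% and 3.44% in FGSCs. Both FGSC peaks ranked above both Dif-FGC peaks, and the Dif-FGC lists stood far apart from each other.

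At a second annotated start of Tfeb, the locus chr17:47737928-47738204 was found in both FGSC lists alone, at ranks of 59.1% and 53.6%. Another locus, near a further start, chr17:47785720-47786196, was found in all 4 lists with ranks of 17.1% and 76.7% in Dif-FGCs and 24.7% and 24.3% in FGSCs, so that there the Dif-FGC lists lay on both sides of the FGSC lists. In Dif-FGC 2 the strongest Tfeb peak was at rank 76.7%, the weakest value among the 21 members of that list.

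**Figure D3:**
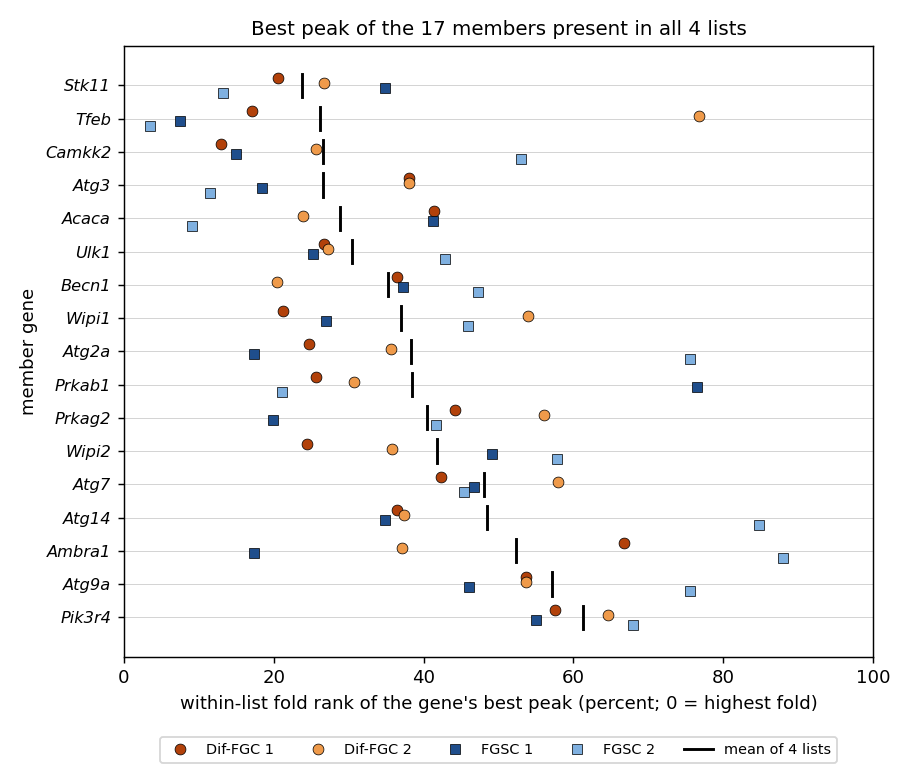
Within-list fold rank in percent (x axis, 0 is the highest fold) of the strongest peak of the 17 members present in every list (y axis), ordered by their mean rank (black bar). Circles are the Dif-FGC lists and squares the FGSC lists, set slightly apart in height so that marks stay visible. Stk11, Tfeb, Camkk2 and Atg3 have the best means, and the circles and squares do not overlap for Tfeb, Atg3, Prkag2, Becn1 and Wipi2. The share of all genes without such overlap was not computed, so nothing is read from it. For Prkag2 the FGSC 1 mark (19.9%) is from a locus of that list alone, and at its shared locus the states overlapped.

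Over all member loci, 16 of 176 had a peak in all 4 lists (9.09%, against 15.5% of all loci) and 112 had a peak in 1 list (63.6%, against 54.7%). The members thus had a lower share of loci in all lists and a higher share in 1 list than the series as a whole, a description with no test. Loci in both Dif-FGC lists and in neither FGSC list numbered 8 (4.55%, against 3.65% of all loci), and loci in both FGSC lists and in neither Dif-FGC list also numbered 8 (4.55%, against 3.61%). The loci of 1 list came mostly from the longer lists, 50 from Dif-FGC 1 (28.4%, against 18.7% of all loci) and 6 from Dif-FGC 2 (3.41%, against 4.2%), with 42 from FGSC 1 (23.9%, against 21%) and 14 from FGSC 2 (7.95%, against 10.8%). Of the loci held by a pair of lists, 14 were shared by Dif-FGC 1 and FGSC 1 (7.95%, against 5.13% of all loci), more than the 8 of the Dif-FGC pair or the 8 of the FGSC pair, and over all loci that pair of lists also held more than either of these.

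Of the 8 Dif-FGC-only loci, ranks ran from 14.6% to 99.9% with a median of 69%, and 1 lay at an annotated start. Of the 8 FGSC-only loci, ranks ran from 8.51% to 94.2% with a median of 56.2%, and 3 lay at a start of the annotation used. The Acaca locus just inside the limit of its gene was not counted, because that limit was not among the annotated starts. The Pik3c3 locus could not be scored. Most of these loci had at least 1 peak in the weaker part of its list. Both peaks lay in the stronger 50% of their lists at 1 Dif-FGC-only locus, that of Ulk1, and at 2 FGSC-only loci, those of Acaca and Atg13.

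**Figure D4:**
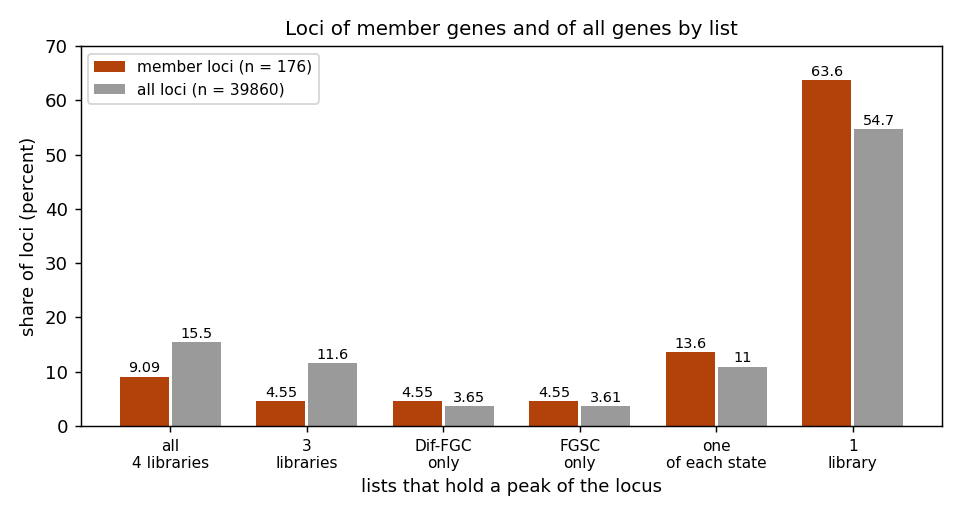
Share in percent (y axis) of the 176 member loci and of all 39860 loci (bars, the value printed above each) by the lists that hold a peak of the locus (x axis). The member loci have the lower share in all 4 libraries, 9.09% against 15.5%, and the higher share in 1 library, 63.6% against 54.7%.

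At the 16 loci shared by all lists, fold ranks could be compared. Both Dif-FGC lists ranked above both FGSC lists at 4 loci (25%, against 22.6% of all shared loci), which belonged to Stk11, Camkk2, Becn1 and Wipi2. Both FGSC lists ranked above both Dif-FGC lists at 4 loci (25%, against 16.3%), which belonged to Wipi1, Tfeb and, with 2 loci, Atg3. At the other 8 the states overlapped. A rank depends on all other peaks of its list, and these counts carry no test.

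Loci at annotated starts formed a larger share of the loci that recurred than of those found once. Of 168 member loci in genes with an annotated start, 20 overlapped its first 50 bases (11.9%, against 17.9% over all genes). Among member loci found in all 4 lists 9 of 15 did (60%, against 44.8%), and among those of 1 list 1 of 107 did (0.935%, against 7.97%). Only starts of the annotation used were scored. Loci of Acaca and Atg7 at the outer limits of their genes were therefore not counted, since those limits were not among these starts. Overlap was scored on the joined span of a locus. The FGSC 2 peak of Atg14, and both Dif-FGC peaks of the Tfeb locus chr17:47785720-47786196, did not themselves reach the first 50 bases. At least 1 start locus was found for 18 members. The start peaks of Stk11, Wipi2, Atg3 and Tfeb had the same limits in all 4 lists.

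Kinase genes and machinery genes were listed in similar shares. Of the genes with a peak, 50% in each class had one in all 4 lists, against 43.5% of all genes with a peak. A peak in all 4 lists was found for 4 of 8 kinase genes (Prkab1, Prkag2, Stk11 and Camkk2) and for 12 of 25 machinery genes, with a median of 7.5 peaks for a kinase gene and of 7 for a machinery gene over the 4 lists. Shared loci numbered 5 of 36 for kinase genes (13.9%) and 10 of 123 for machinery genes (8.13%), against 15.5% of all loci. Loci of 1 state were 2 in Dif-FGCs and 0 in FGSCs for kinase genes, and 6 in Dif-FGCs and 6 in FGSCs for machinery genes. Over all loci 3.65% were of Dif-FGCs alone and 3.61% of FGSCs alone, and counts this small do not set the classes apart. The strongest peak had a median rank of 20.6% and 42.8% in the Dif-FGC lists and 38.1% and 27% in the FGSC lists for kinase genes, and of 42.3% and 37.8% in the Dif-FGC lists and 39.5% and 52.7% in the FGSC lists for machinery genes. Neither class was the stronger in every list, with the kinase genes ahead in all lists but Dif-FGC 2. The kinase medians rest on 5 and 6 genes in the Dif-FGC lists and 8 and 5 in the FGSC lists, not the same genes in each. The machinery medians rest on 21 and 14 genes in the Dif-FGC lists and 22 and 18 in the FGSC lists. Within the machinery, presence in all 4 lists was found for Tfeb as the 1 transcription factor, for 4 of 5 membrane supply genes, 4 of 6 genes of the 3-kinase complex, 2 of 6 conjugation genes, 1 of 4 initiation genes and 0 of 3 cargo receptors. Over all genes with a peak the share was 43.5%. With so few genes in a role, no order of roles is read from these counts.

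Of 37 further autophagy genes 31 had a peak and 19 of these had one in all 4 lists (61.3%), and of 18 further AMPK pathway genes 17 had a peak and 11 of these had one in all 4 lists (64.7%). Over all genes with a peak this share was 43.5%, and the difference was not tested. In 1 state alone, the cargo receptor gene Tax1bp1 was found in both Dif-FGC lists, at ranks of 85.6% and 58.9%. The protease gene Atg4a (ranks 38.1% and 42.7%) and Gabarapl2, a ubiquitin-like protein of the conjugation step (ranks 70.6% and 88.1%), were found in both FGSC lists alone. The strongest peak of the further AMPK genes had a median rank of 16.9% and 26.4% in the Dif-FGC lists and 16.7% and 35.2% in the FGSC lists. For the further autophagy genes it was 28.1% and 42% in the Dif-FGC lists and 19.2% and 36.9% in the FGSC lists. Over all genes the medians were 29.7% and 34.5% in the Dif-FGC lists and 28.8% and 33.4% in the FGSC lists. Map3k7, the kinase TAK1 that has been placed upstream of AMPK and is named here after its values were seen, ranked at 0.52% and 0.783% in the Dif-FGC lists and 0.272% and 1.12% in the FGSC lists, ahead of every member in each list.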

How the data were processed

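acRIP-seq peak lists of 2 Dif-FGC and 2 FGSC libraries were analysed. The submitters' processing notes name cutadapt, HISAT2, MACS2 and mm10, without versions. The authors deposited, for each peak assigned to an mRNA, a fold enrichment (a ratio of IP over input), a peak score, a false discovery rate in percent and a length in bp. The peak names and score take the form of older MACS output, so the exact definitions of these columns are not settled. The deposited lists hold no read counts and no strand, exon annotation was not used, and 0 columns were left unmatched to a sample. File positions count from 0 and are printed counted from 1.

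Member peaks were selected by gene name. Peaks that overlapped by at least 1 bp were joined to loci across the lists (python 3.11.15, pandas 2.3.3, numpy 2.4.6, figures with matplotlib 3.10.9), which was tested on simulated data. Folds were ranked within each list. A locus was particular to a state when both its lists held a peak and neither list of the other did. Differences in the 4 values per library were tested by permuting the libraries between the states (exact, two-sided, 6 assignments) and adjusted by Benjamini-Hochberg, and all other counts are descriptions. Values are given for every member absent from a list, every locus of 1 state, the 8 best mean ranks and the 3 largest peak counts, and the rest in brief. Starts and sequences are from RefSeq. The members and lists were chosen with earlier results of these data known. Alternatives were equal list lengths, stricter folds and scores, rank by score, other overlaps, other groupings of the kinases, each library left out and a replicate block.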

Additional observations from a re-analysis of the deposited data

How the results depend on the processing

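The exact permutation test allows no p under 0.33, so it could call no difference in any setting. That lowest value (exact permutation p = 0.333) was reached for the number of member genes at equal list lengths (difference -4). It was also reached for the rank in the upper 50% of every list by fold (-6.35) and at a score of at least 100 (-11.1). In the main setting the exact permutation p was 0.667 for both. The lists share only replicate numbers, and with the replicate block the p-values over sign changes were 1 for peaks, 0.5 for genes, 0.5 for the share of the list and 1 for the rank, where 0.5 is the lowest that block allows. The Dif-FGC minus FGSC difference in member peaks was 2, and -2 in the upper 50% of every list by fold, where the difference in the share of the list was -0.00432 percentage points. Leaving out a library in turn gave -26 to 30 peaks and -0.035 to 0.0965 percentage points of the list, with negative values without Dif-FGC 1 (-26 and -0.035) and without FGSC 2 (-20 and -0.0246). The direction of the differences in genes and in rank was kept in every setting tried.

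With shorter lists, counts of members and loci in all lists and of loci in 1 state fell, while counts of genes in 1 state rose or stayed the same. With the stronger 50% of each list, 5 members, 3 loci, 1 kinase gene and 3 machinery genes were in all lists, 1 gene and 5 loci were in Dif-FGCs alone and 2 genes and 4 loci in FGSCs alone. With a score of at least 100, 10 members, 7 loci and 6 machinery genes were in all lists, and 2 genes and 4 loci in FGSCs alone. At an equal length of 13920 peaks, 9 loci were in all lists, 5 in Dif-FGCs alone and 5 in FGSCs alone, with 3 genes in FGSCs alone. Counting a peak in 1 library of a state as enough gave 1 gene and 64 loci in Dif-FGCs alone and 5 genes and 64 loci in FGSCs alone. Requiring 50 bp of overlap left 5 FGSC-only loci, and joining peaks up to 200 bp apart, an alternative chosen after seeing the data, gave 18 loci in all lists, 8 in Dif-FGCs alone and 7 in FGSCs alone. Leaving out each library in turn gave 0 to 3 Dif-FGC-only and 2 to 6 FGSC-only genes (6 without Dif-FGC 1), and 9 to 58 Dif-FGC-only loci (58 without Dif-FGC 2) and 9 to 50 FGSC-only loci (50 without FGSC 2), since 1 list then stands for a state. With Ulk1, Ulk2, Pik3c3 and Pik3r4 as kinase genes, 6 of 12 kinase and 10 of 21 machinery genes were in all lists, and with Acaca and Acacb added 5 of 10 kinase genes were. Depth is unknown, so the lists cannot separate a missing peak from an undetected one.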

Other observations

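Some fold values recurred within a list. Among member peaks, 16 of 99 in Dif-FGC 1, 4 of 43 in Dif-FGC 2, 26 of 91 in FGSC 1 and 9 of 47 in FGSC 2 had a fold identical, to the decimals given, to that of another member peak of the same list. Over whole lists the most frequent fold was 3.72 in Dif-FGC 1 (130 peaks) and 5.23 in Dif-FGC 2 (78 peaks), against 7.14 in FGSC 1 (311 peaks) and 4.09 in FGSC 2 (230 peaks). This 1 fold made up 0.578% and 0.56% of the Dif-FGC lists, against 1.36% and 1.41% of the FGSC lists. Peaks that share a fold share a rank. In FGSC 1 a fold of 8.33 was given for peaks of Prkag2, Atg13, Atg5 and Tfeb.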
